A study of Homo sapiens with 24 samples.

Results

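HCT116 parent cells, a colon cancer line with a wild-type genotype, were treated with DS07551382, an inhibitor of the phosphatidylserine synthase PTDSS1, and compared with the same cells in vehicle. The members were the libraries titled as HCT116 parent with the inhibitor or with DMSO, 6 of the 24 libraries of the series. The inhibitor group was HCT116, wild type, with 0.1 µM DS07551382 for 24 h (3 libraries), and the vehicle group was HCT116, wild type, with DMSO for 24 h (3 libraries). Set beside them were the same treatments in HCT116 cells of the knockout line PTDSS2-KO#3 and in wild-type A375 parent cells, a melanoma line, with 3 libraries per group. The study is about PTDSS1 inhibition in cancer cells without PTDSS2, and the parent comparison asks how large a change of lipid, stress and growth genes is possible where PTDSS2 is present. The labels do not say whether replicates were separate cultures, so p-values and intervals cover only library-to-library spread, which could be technical.

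Phosphatidylserine is an acidic phospholipid of the inner face of the plasma membrane. It is made in the endoplasmic reticulum (ER) by base exchange, in which PTDSS1 replaces the head group of phosphatidylcholine with serine and PTDSS2 that of phosphatidylethanolamine. PISD then turns part of it into phosphatidylethanolamine in mitochondria. Cells read membrane sterol through the SREBP transcription factors, and amino acid shortage and ER stress through the kinases that feed the integrated stress response and its transcription factor ATF4, so lipid and stress genes are usual readouts of membrane lipid change.

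Inhibitor libraries held 7901427 to 9292158 counts and vehicle libraries 9360927 to 10002741 counts, so the vehicle libraries were the deeper ones in each case. The colon and epithelial genes EPCAM and KRT8 were high, with means of 358 and 2361 TPM (transcript abundance scaled to length and library size) over the 6 libraries. CDX2, an intestinal transcription factor, stood at 14.8 TPM, and the intestinal genes CDX1 and MUC2 were listed at 0. Markers of other cell types were low in both groups: summed melanocyte markers reached 18.6 to 20.7 TPM with inhibitor and 20.6 to 22.2 TPM in vehicle, fibroblast markers 5.83 to 6.81 TPM with inhibitor and 6.40 to 8.46 TPM in vehicle, and blood cell markers 7.52 to 10.9 TPM with inhibitor and 9.19 to 10.9 TPM in vehicle. The melanocyte gene TYR was listed at 0 in all 6 libraries. PTDSS2, the gene removed in the knockout line, averaged 5.71 ± 1.28 CPM (counts scaled to library size; SD, n = 3) in knockout cells with inhibitor and 6.60 ± 1.23 CPM in knockout vehicle. The first principal component of the 6 parent libraries, 26.1% of the variance, placed the inhibitor libraries between -10.0 and -2.36 and the vehicle libraries between 3.27 and 10.3, and depth split the libraries in the same way; the part of depth in this was not tested.

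No gene of the HCT116 parent passed the test for a change with the inhibitor. Over 13164 genes, edgeR's quasi-likelihood test with Benjamini-Hochberg adjustment called 0 higher (0.0%) and 0 lower (0.0%) at an adjusted p under 0.05. At an unadjusted p under 0.05 there were 550 genes (4.18%), 245 higher and 305 lower, and the smallest adjusted p was 0.819. In bulk RNA scaled to library size, fewer cells and less RNA per cell cannot be told apart. A change common to all genes would be scaled away, so each fold change is relative to the other genes. By DESeq2 1 gene was called, GTF2IP4, one of several near-identical copies with uncertain counts, and 190 were at an unadjusted p under 0.05, and by limma-voom 0 were called and 563 were at an unadjusted p under 0.05. The middle 90% of genes was narrow, with log2 fold changes (inhibitor over vehicle) from -0.26 at the 5th percentile to 0.21 at the 95th. Of all genes tested, 81 had an estimate beyond a log2 fold change of 1 in either direction, and the most abundant of these averaged 12.7 CPM.

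A missed threshold does not show that a gene stayed the same, so the size of change left possible was read from the 95% interval of each log2 fold change. Its end farther from 0, written as a fold change in either direction, is called the bound. The median gene had an interval of ±0.16 on the log2 scale and a bound of 1.17-fold. A second reading was an equivalence test, a pair of one-sided tests against a stated fold change in each direction, adjusted over all 13164 genes. It excluded a 25% change (a rise of 25% or a fall of the same fold) for 9054 genes (68.8%), of 1.5-fold for 11280 genes (85.7%) and of 2-fold for 12485 genes (94.8%). Since this test is one-sided and adjusted, a gene near a limit can pass it with a bound slightly beyond that limit.

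How small a change could be excluded followed the abundance of the transcript. Of 353 genes under 1 CPM, 0 had a 1.5-fold change excluded, and their median bound was 2.74-fold. Between 1 and 5 CPM 28.0% of 1916 genes did, with a median bound of 1.74-fold, and between 5 and 20 CPM 95.5% of 2923 genes did, with a median bound of 1.29-fold. Genes from 20 to 100 CPM had a median bound of 1.14-fold, those from 100 to 500 CPM 1.08-fold, and the 279 genes of 500 CPM or more 1.06-fold, and a 1.5-fold change was excluded for 99.7%, 99.9% and 100% of them. Of the 22 lipid, stress and growth genes without a 1.5-fold change excluded, 21 averaged under 5 CPM, and the other, PLSCR3, averaged 17.8 CPM.

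**Figure D1:**
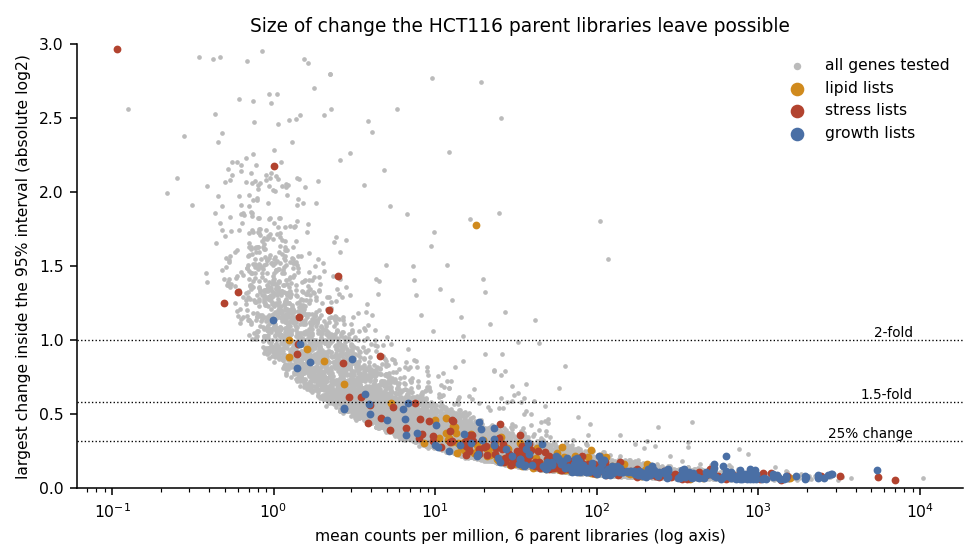
Largest absolute log2 fold change inside the 95% interval of each gene of the HCT116 parent (vertical axis) against its mean CPM over the 6 parent libraries (log axis); grey points are all genes tested, coloured points are members of the lipid, stress and growth lists, and dotted lines mark a 25% change, 1.5-fold and 2-fold. The bound shrinks with abundance to 1.06-fold at the median of the genes of 500 CPM or more, and 66 genes with a bound beyond a log2 value of 3 lie above the axis.

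The RNA of the phosphatidylserine synthases was held to narrow limits. PTDSS1, the target of the inhibitor, had 129, 129 and 127 CPM with inhibitor and 130, 125 and 121 CPM in vehicle. The groups overlapped, at a log2 fold change of 0.04 ± 0.04 (SE) and a bound of 1.09-fold. PTDSS2 had 39.4, 38.2 and 34.4 CPM with inhibitor and 36.1, 33.1 and 37.8 CPM in vehicle, again overlapping, at 0.07 ± 0.08 and a bound of 1.17-fold. PISD had 49.5, 48.8 and 47.8 CPM with inhibitor and 49.0, 54.6 and 49.5 CPM in vehicle, at -0.07 ± 0.06 and a bound of 1.14-fold. A 25% change was excluded for all 3 genes. In the knockout line, by contrast, PTDSS1 averaged 79.1 ± 2.42 CPM with inhibitor and 108 ± 0.693 CPM in vehicle (SD, n = 3), and the fall of 0.45 on the log2 scale lies outside the parent interval of -0.04 to 0.12.

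**Figure D2:**
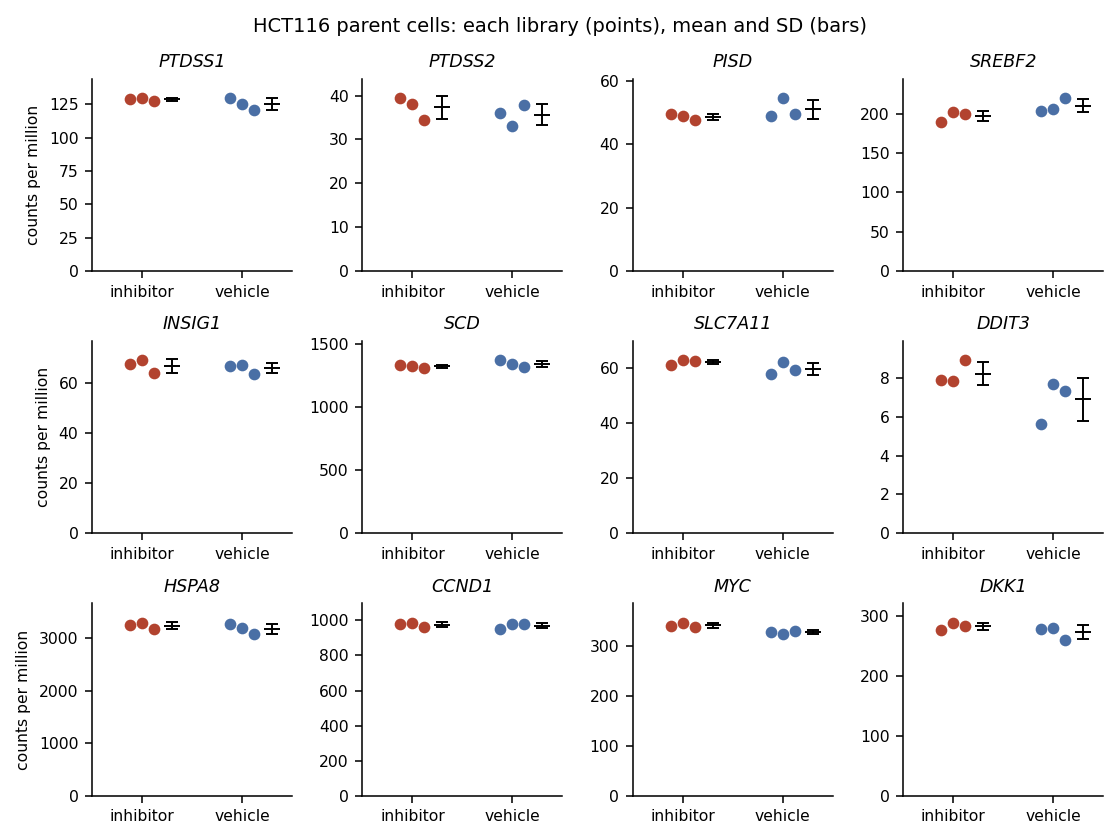
CPM of 12 genes in each HCT116 parent library (points; inhibitor left, vehicle right) with the mean and SD of each group (bars); every vertical axis starts at 0. The groups overlap for all genes shown but SREBF2, DDIT3 and MYC, with PTDSS1, for example, at 127 to 129 CPM with inhibitor and 121 to 130 CPM in vehicle.

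Among lipid genes, 131 of 142 listed genes passed the count filter, 0 were called, and a 1.5-fold change was excluded for 125 of them (all genes tested: 85.7%). A 2-fold change was excluded for 130, all but PLSCR3, and a 25% change for 116. Their median log2 fold change was -0.00 and their median bound 1.13-fold. The groups did not overlap for 5 higher and 12 lower lipid genes, and over all genes tested they did not overlap for 4.75% higher and 4.95% lower. At an unadjusted p under 0.05 were 8 lipid genes (6.11%, against 4.18% of all genes).

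Phospholipid synthesis genes were held to small limits. The 34 of 35 listed genes that passed the filter all had a 1.5-fold change excluded, with a median of 0.01 and bounds from 1.06-fold for AGPAT5, an acyltransferase of phosphatidic acid synthesis, to 1.38-fold for TAMM41, which makes CDP-diacylglycerol in mitochondria. SELENOI, the ethanolamine phosphotransferase, had 191, 181 and 190 CPM with inhibitor and 184, 191 and 182 CPM in vehicle, which overlap, with a bound of 1.07-fold. CHKA, the first kinase of the phosphatidylcholine and phosphatidylethanolamine pathways, had 40.1, 42.4 and 41.9 CPM with inhibitor and 39.8, 41.4 and 46.8 CPM in vehicle, with a bound of 1.13-fold. CEPT1, the choline and ethanolamine phosphotransferase, was lower in each inhibitor library, at 40.6, 40.0 and 40.7 CPM against 43.2, 45.0 and 45.9 CPM in vehicle. Its log2 fold change of -0.14 ± 0.06 did not pass the test (adjusted p = 0.999) and its bound was 1.21-fold.

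Genes that move phosphatidylserine between membranes or leaflets held 3 of the 6 lipid genes without a 1.5-fold limit. A 1.5-fold change was excluded for 19 of the 22 tested, and the others were ATP8A1, PLSCR3 and PLSCR4. TMEM30A, the shared subunit of the flippases that return phosphatidylserine to the inner leaflet, had 165, 155 and 164 CPM with inhibitor and 161, 160 and 156 CPM in vehicle, with a bound of 1.07-fold. ATP11A, a flippase of the plasma membrane, had a bound of 1.10-fold, and OSBPL8, which carries phosphatidylserine from the ER to the plasma membrane, 1.08-fold. PLSCR3, a scramblase family member, scattered most, at 9.53, 25.9 and 5.72 CPM with inhibitor and 25.2, 22.8 and 17.8 CPM in vehicle, and its bound was 3.43-fold.

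The cholesterol synthesis and uptake genes were the lipid list with the most genes at an unadjusted p under 0.05, although none passed the adjusted test. All 27 genes passed the filter, 0 were called, and a 1.5-fold change was excluded for all 27. Of them 6 (22.2%, against 4.18% of all genes) were at an unadjusted p under 0.05, and all 6 were lower: HMGCS1, IDI1, SQLE, CYP51A1 and MSMO1, enzymes of the pathway, and SREBF2, its transcription factor. For 6 genes each inhibitor library was below each vehicle library and for 1 above, against 4.95% lower and 4.75% higher over all genes. These genes were singled out after their values were seen. SREBF2 had 190, 202 and 200 CPM with inhibitor and 204, 207 and 220 CPM in vehicle, at -0.09 ± 0.04 (unadjusted p = 0.0187; adjusted p = 0.999; edgeR). SQLE, squalene epoxidase, had 84.4, 88.7 and 88.7 CPM with inhibitor and 102, 101 and 87.1 CPM in vehicle, at -0.15 ± 0.05, and its groups overlapped through vehicle replicate 3. HMGCS1, HMG-CoA synthase, had 98.1, 102 and 100 CPM with inhibitor and 114, 103 and 111 CPM in vehicle, at -0.13 ± 0.05, which did not overlap.

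INSIG1, which holds the sterol sensor in the ER, had 67.7, 69.1 and 63.9 CPM with inhibitor and 66.9, 67.2 and 63.7 CPM in vehicle, at 0.02 ± 0.06 and a bound of 1.10-fold. Its groups overlapped. The list as a whole had a median of -0.02, with 11 of 27 genes above 0. Summed over the list, the deposited values came to 1724, 1762 and 1732 TPM with inhibitor and 1812, 1761 and 1803 TPM in vehicle, so that inhibitor replicate 2 met vehicle replicate 2. The count of 6 fell to 2 without vehicle replicate 1, to 3 without inhibitor replicate 3 and to 3 with DESeq2.

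Fatty acid genes had the smallest median bound of the lipid lists, 1.09-fold. All 17 passed the filter and had a 1.5-fold change excluded. SCD, the stearoyl-CoA desaturase, had 1333, 1320.1 and 1310.2 CPM with inhibitor and 1369, 1338 and 1318 CPM in vehicle, with a bound of 1.05-fold. FASN, fatty acid synthase, and ACLY, which makes cytosolic acetyl-CoA, both had bounds of 1.05-fold. SREBF1, the transcription factor of this list, had 194, 200 and 207 CPM with inhibitor and 202, 206 and 222 CPM in vehicle, at -0.07 ± 0.04 and a bound of 1.11-fold.

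Sphingolipid and sterol efflux genes held the remaining low-count members. Of 21 sphingolipid genes tested, 20 had a 1.5-fold change excluded, all but SPTSSB, a small subunit of serine palmitoyltransferase. The groups did not overlap for 3 higher (14.3%) and 2 lower members (9.52%), against 4.75% higher and 4.95% lower over all genes. SPTLC2, a catalytic subunit of that enzyme, which uses serine as a substrate, was higher in each inhibitor library, at 123, 118 and 116 CPM against 103, 114 and 111 CPM in vehicle, but did not pass the test (0.12 ± 0.05; adjusted p = 0.999; edgeR). Of 8 sterol efflux and LXR genes tested, 6 had a 1.5-fold change excluded. The cholesterol exporter ABCA1 had 1.08, 1.70 and 1.27 CPM with inhibitor and 1.21, 1.37 and 0.851 CPM in vehicle, and its bound was 2.0-fold.

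Stress genes gave the same picture, with 0 of 214 tested members called of 232 listed. A 25% change was excluded for 182, a 1.5-fold change for 203 and a 2-fold change for 207, and the median bound was 1.12-fold. At an unadjusted p under 0.05 were 6 genes (2.80%, against 4.18% of all genes), and the groups did not overlap for 11 higher (5.14%) and 2 lower members (0.935%), against 4.75% higher and 4.95% lower over all genes. The 11 genes for which 1.5-fold was not excluded were ALDH1L2, BIRC3, BMF, CASP10, CHAC1, CXCL8, HRK, MAP1LC3B2, MITF, NUPR1 and TRAF1.

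The integrated stress response, the ATF4 program of amino acid transport, serine synthesis and tRNA charging, was flat for its abundant members. Of 43 genes 40 were tested, 37 had a 1.5-fold change excluded, and the median was 0.03. ATF4 itself had the smallest bound of the list, 1.05-fold. SLC7A11, the cystine transporter, had 61.1, 62.7 and 62.4 CPM with inhibitor and 57.7, 62.0 and 59.3 CPM in vehicle, at 0.06 ± 0.06 and a bound of 1.12-fold. PSAT1, an enzyme of serine synthesis, had 174, 181 and 178 CPM with inhibitor and 174, 180 and 179 CPM in vehicle, with a bound of 1.06-fold. The groups of both genes overlapped, those of SLC7A11 only through inhibitor replicate 1 and vehicle replicate 2. The bounds of MTHFD2, a mitochondrial folate enzyme, SLC7A5, a large neutral amino acid transporter, and SLC38A2, a small neutral amino acid transporter, were 1.07-fold, 1.07-fold and 1.05-fold.

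Other genes of the same program had wider limits than ATF4. DDIT3, which encodes CHOP, was higher in each inhibitor library, at 7.91, 7.82 and 8.90 CPM against 5.63, 7.70 and 7.34 CPM in vehicle, at 0.25 ± 0.16 (adjusted p = 0.999; edgeR) and with a bound of 1.49-fold. PPP1R15A, the stress-induced phosphatase subunit that acts on eIF2α, had 37.4, 39.0 and 31.1 CPM with inhibitor and 32.3, 30.6 and 31.0 CPM in vehicle, at 0.20 ± 0.08 with a bound of 1.28-fold. Its groups overlapped at inhibitor replicate 3, and it was the list's only gene at an unadjusted p under 0.05. CHAC1, which degrades glutathione, had 3.14, 1.59 and 2.67 CPM with inhibitor and 3.02, 3.27 and 2.34 CPM in vehicle, with a bound of 1.80-fold. NUPR1 had at most 0.227 CPM in any parent library, and its bound was 7.81-fold.

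Chaperone genes, most of them abundant, were closely limited. All 23 heat shock genes had a 1.5-fold change excluded by the equivalence test, with a median bound of 1.07-fold. The widest bound of that list, 1.53-fold, was slightly beyond the limit. All 29 ER chaperone and unfolded protein genes tested had it excluded too, with a median bound of 1.10-fold. For 3 of the 29 (10.3%) the groups did not overlap and were higher, and for 0 lower, against 4.75% higher and 4.95% lower over all genes. HSPA8, the constitutive cytosolic chaperone, had 3243, 3295 and 3177 CPM with inhibitor and 3263, 3185 and 3073 CPM in vehicle, with a bound of 1.06-fold. HSP90B1, the ER member of its family, had a bound of 1.04-fold. XBP1, a transcription factor of the unfolded protein response, had 54.2, 52.1 and 51.5 CPM with inhibitor and 56.1, 51.2 and 51.2 CPM in vehicle, with a bound of 1.10-fold. DNAJB9, an ER co-chaperone of the same response, had 12.0, 13.7 and 16.1 CPM with inhibitor and 11.2, 11.3 and 13.5 CPM in vehicle, and its bound was 1.37-fold. HSPA1A and HSPA1B are near-identical copies whose reads may be split between them, so their separate values are uncertain.

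NRF2 targets and ferritin, p53 targets and lysosomal genes were likewise limited. A 1.5-fold change was excluded for all 23 NRF2 targets tested, with FTH1, the ferritin heavy chain, at a bound of 1.06-fold, and for all 25 p53 targets tested, with the cell cycle inhibitor CDKN1A at 1.08-fold and the p53 ligase MDM2 at 1.07-fold. SQSTM1, the autophagy receptor p62, had 283, 301 and 283 CPM with inhibitor and 285, 290 and 296 CPM in vehicle, with a bound of 1.05-fold. Of 36 lysosome and autophagy genes tested 34 had 1.5-fold excluded, all but MITF and MAP1LC3B2, each under 5 CPM on average. Inflammatory and death genes held fewer counts. Of 16 NF-kB and cytokine genes tested 13 had 1.5-fold excluded, of 26 apoptosis regulators 23 did, and 9 of the 25 NF-kB genes listed did not pass the filter. With the filter on the parent libraries alone, 15 NF-kB genes, 25 apoptosis regulators and 35 lysosome and autophagy genes remained.

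Groups did not overlap for 2 of the 16 NF-kB and cytokine genes (12.5%) and 2 of the 26 apoptosis regulators (7.69%). All of these were higher, against 4.75% higher over all genes. At an unadjusted p under 0.05 was 1 gene of each list (6.25% and 3.85%, against 4.18% of all genes). They were the low-count genes BIRC3 and CASP10, whose intervals left out 0. CASP10, an initiator caspase, had 3.14, 2.95 and 3.69 CPM with inhibitor and 1.71, 1.16 and 2.45 CPM in vehicle. Its log2 fold change was 0.87 ± 0.28 (unadjusted p = 0.00294; adjusted p = 0.999; edgeR) and its bound 2.71-fold. BIRC3, an inhibitor of apoptosis, had 5.20, 4.76 and 6.10 CPM with inhibitor and 4.62, 3.59 and 3.19 CPM in vehicle, at 0.48 ± 0.21 (unadjusted p = 0.0237; adjusted p = 0.999; edgeR) and a bound of 1.86-fold. Each had the largest estimate of its list.

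Growth genes had the smallest median bound of the 3 families, 1.09-fold. Of 247 listed genes 237 were tested, 0 were called, and a 2-fold change was excluded for all 237 tested. A 1.5-fold change was excluded for 232, all but ACTA2, EGR3, NR4A3, SP5 and TNFRSF19, and a 25% change for 216. At an unadjusted p under 0.05 were 6 genes (2.53%, against 4.18% of all genes), and the groups did not overlap for 11 higher (4.64%) and 7 lower members (2.95%), against 4.75% higher and 4.95% lower over all genes.

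For the machinery of division and protein synthesis a change of 25% was excluded in every member. This held for all 34 DNA replication genes, all 31 mitosis genes, all 27 ribosome biogenesis genes and all 56 cytosolic ribosomal protein genes, with median bounds of 1.08-fold, 1.08-fold, 1.08-fold and 1.06-fold. MKI67, the proliferation marker, had 782, 769 and 799 CPM with inhibitor and 757, 770 and 794 CPM in vehicle, with a bound of 1.06-fold. MCM4, a subunit of the replicative helicase, and CDC20, an activator of the anaphase-promoting complex, had bounds of 1.05-fold each. NCL, nucleolin, had 2400.1, 2376 and 2290 CPM with inhibitor and 2414, 2312 and 2265 CPM in vehicle, with a bound of 1.05-fold. Of the ribosomal protein genes 46 of 56 had estimates above 0, at a median of only 0.02 (all genes tested: -0.00). Over 16 alternatives that median ran from 0.0029, without vehicle replicate 3, to 0.032. The members share libraries and scaling, so they are not separate observations. The list summed to 156426, 156945 and 154737 TPM with inhibitor and 155353, 156503 and 154227 TPM in vehicle, which overlap.

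Cell cycle entry genes were close to 0 as well. Of 25 tested, the groups did not overlap for 3 higher (12%) and 2 lower members (8%), against 4.75% higher and 4.95% lower over all genes. At an unadjusted p under 0.05 was 1 gene (4%, against 4.18% of all genes). CCND1, cyclin D1, had 977, 988 and 964 CPM with inhibitor and 952, 979 and 978 CPM in vehicle, with a bound of 1.05-fold. MYC was higher in each inhibitor library, at 341, 348 and 338 CPM against 330, 324 and 332 CPM in vehicle, at 0.06 ± 0.03 (adjusted p = 0.999; edgeR) and a bound of 1.09-fold. E2F1, a transcription factor of S phase entry, was lower in each, at 41.3, 44.6 and 44.2 CPM against 50.6, 49.1 and 46.6 CPM in vehicle, at -0.17 ± 0.06 (unadjusted p = 0.00961; adjusted p = 0.999; edgeR). Its bound was 1.23-fold.

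Targets of YAP and SRF, of MAPK signalling and of Wnt signalling completed the growth lists. Of 22 YAP and SRF targets tested 18 had estimates above 0, the median was 0.04 (all genes tested: -0.00), and a 1.5-fold change was excluded for 21. At an unadjusted p under 0.05 were 3 of the 22 (13.6%, against 4.18% of all genes), all higher: ACTG1, TEAD4 and THBS1. ACTG1, a cytoplasmic actin, stood at 0.06 ± 0.03 and TEAD4, a DNA-binding partner of YAP, at 0.17 ± 0.07. THBS1, the matrix protein thrombospondin, had 27.7, 26.2 and 19.8 CPM with inhibitor and 20.3, 22.996 and 21.0 CPM in vehicle, at 0.21 ± 0.10 (unadjusted p = 0.0369; adjusted p = 0.999; edgeR) and a bound of 1.33-fold, with the inhibitor libraries on both sides of the vehicle range. AMOTL2, a YAP target, had a bound of 1.11-fold. DUSP4, a MAPK phosphatase, had 148, 154 and 155 CPM with inhibitor and 156, 155 and 158 CPM in vehicle, with a bound of 1.09-fold. DKK1, a secreted Wnt antagonist, had 276, 288 and 282 CPM with inhibitor and 279, 280 and 260 CPM in vehicle, with a bound of 1.09-fold. AXIN2, a feedback inhibitor of Wnt signalling, was lower in each inhibitor library, at 17.5, 17.4 and 16.3 CPM against 20.4, 21.2 and 19.7 CPM in vehicle. It stood at -0.25 ± 0.10 (unadjusted p = 0.0117; adjusted p = 0.999; edgeR), with a bound of 1.37-fold.

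Outside the lists, the genes nearest to a call were lower ones. FBXL12, a substrate receptor of a ubiquitin ligase, had 14.8, 13.8 and 15.3 CPM with inhibitor and 19.0, 21.8 and 19.4 CPM in vehicle, at -0.46 ± 0.11 (unadjusted p = 8.391e-05; adjusted p = 0.819; edgeR). LRRC14 had 80.0, 80.8 and 76.9 CPM with inhibitor and 89.2, 88.8 and 95.9 CPM in vehicle, at -0.20 ± 0.05 with the same adjusted p. NPIPA5 and SMPD4BP shared that adjusted p, and both belong to families of near-identical copies, so their counts are uncertain. The higher genes with the smallest unadjusted p were TATDN2, with 71.6, 74.5 and 80.1 CPM with inhibitor and 65.0, 67.9 and 65.2 CPM in vehicle, DGCR6L, KRT23, NUDT4P2 and SAMM50, each at an adjusted p of 0.999. SAMM50, a subunit of the mitochondrial outer membrane assembly machinery, stood at 0.18 ± 0.05, and KRT23, a keratin, at 0.45 ± 0.13. RNASEK-C17orf49, a readthrough gene, was at 0 in all 3 inhibitor libraries and at 0.738 to 1.49 CPM in vehicle.

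The PTDSS2 knockout line gives a scale for these limits, since the same dose changed 4815 of 13164 genes (36.6%) there, 2232 higher (17.0%) and 2583 lower (19.6%). For 4549 of the 4815 (94.5%) the change of the knockout lay outside the 95% interval of the parent. Such counts take genes picked for their change in the knockout and leave out the error of the knockout estimate. Of the 249 genes that changed at least 2-fold in the knockout, 235 were outside it, and the other 14 averaged at most 2.51 CPM in the parent. Over those 249 genes the median absolute log2 fold change was 0.14 in the parent and 1.28 in the knockout, and at the median gene the parent interval left room for at most 31.5% of the knockout change. The difference itself, knockout effect minus parent effect, was called for 3218 genes (24.4%), 1438 upward (10.9%) and 1780 downward (13.5%), and for 172 of the 249. The parent and knockout effects share no library.

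Stress response and sterol genes differed upward. The shares over all genes were 17.0% higher and 19.6% lower in the knockout, and 10.9% upward and 13.5% downward for the difference. Of 40 integrated stress response genes the parent had 0 called and the knockout 38, all higher, with medians of 0.03 and 0.88, and the difference was called upward for 34. For 37 of the 38 the knockout change lay outside the parent interval, and at the median gene of the 38 the parent could hold at most 15.3% of it. SLC7A11 averaged 62.0 ± 0.841 CPM in parent cells with inhibitor, against 244 ± 8.89 CPM in knockout cells with inhibitor (SD, n = 3), and PSAT1 178 ± 3.62 CPM in parent cells against 460 ± 11.1 CPM in knockout cells, also with inhibitor. Of 27 cholesterol genes the parent had 0 called at a median of -0.02, and the knockout had 21 higher and 1 lower at a median of 0.40, with the difference called upward for 18 and downward for 1. SREBF2 and SQLE, below 0 in the parent, were among the genes that rose in the knockout, at 0.57 ± 0.04 and 0.61 ± 0.05.

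Chaperone and growth lists differed in both directions. Their counts stand against 17.0% higher and 19.6% lower of all genes in the knockout. For the difference, 10.9% of all genes were called upward and 13.5% downward. Of 23 heat shock genes the parent had 0 called and the knockout 18 lower and 1 higher, with medians of 0.02 and -0.33, and the difference was called downward for 16. Of 27 ribosome biogenesis genes the knockout had 26 lower, with medians of 0.02 in the parent and -0.24 in the knockout, and the difference was called downward for 24. Of 56 cytosolic ribosomal protein genes the knockout had 22 higher and 0 lower, with medians of 0.02 in the parent and 0.06 in the knockout, and the difference was called upward for 10. Of 29 ER chaperone and unfolded protein response genes the knockout had 7 higher and 8 lower, and the difference was called upward for 6 and downward for 6. DNA replication genes had 19 of 34 lower in the knockout and the difference downward for 17, and YAP and SRF targets 16 of 22 lower and the difference downward for 15. Immediate early and MAPK feedback genes had 20 of 30 higher in the knockout and 2 lower, with medians of -0.00 in the parent and 0.43 in the knockout, and the difference was called upward for 17 and downward for 2. With the filter on the parent libraries alone, 29 of these 30 genes remained. DKK1 averaged 282 ± 6.24 CPM in parent cells with inhibitor, against 18.9 ± 1.60 CPM in knockout cells with inhibitor, although knockout vehicle also stood at only 102 ± 6.06 CPM.

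**Figure D3:**
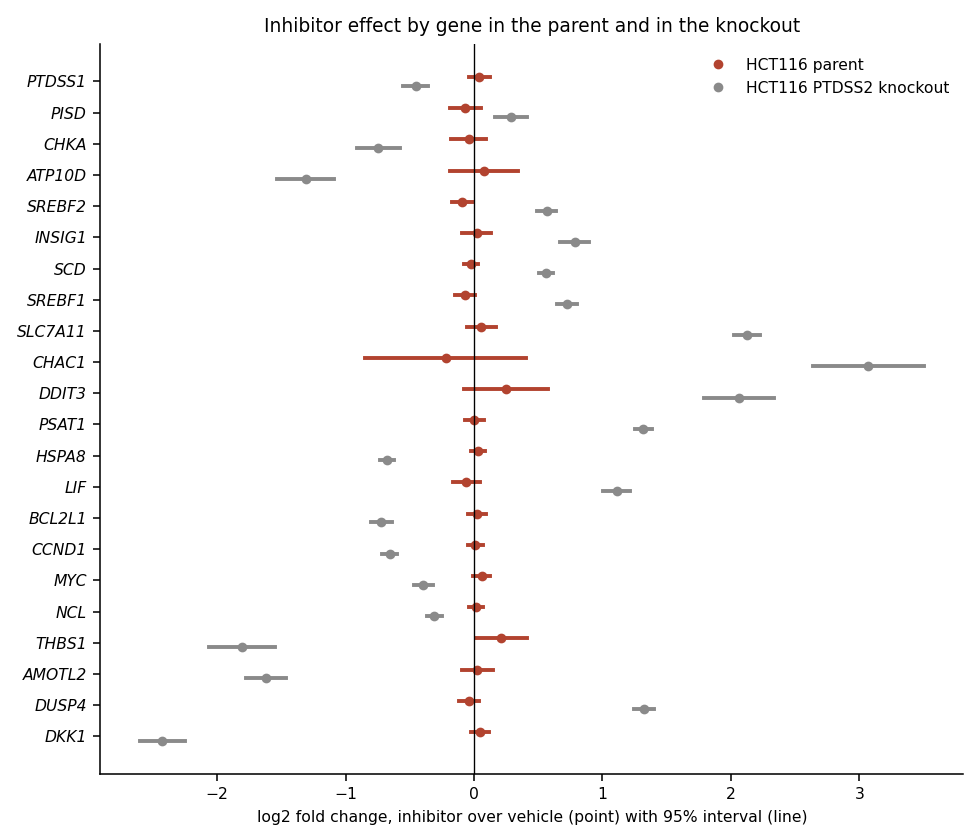
Log2 fold change of inhibitor over vehicle (points) with its 95% interval (lines) for 22 genes, in the HCT116 parent (red, upper of each pair) and in the HCT116 PTDSS2 knockout (grey, lower of each pair). Parent intervals lie near 0, such as -0.06 to 0.17 for SLC7A11, and the knockout values lie away from them, such as 2.13 for SLC7A11 and -2.43 for DKK1.

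**Figure D4:**
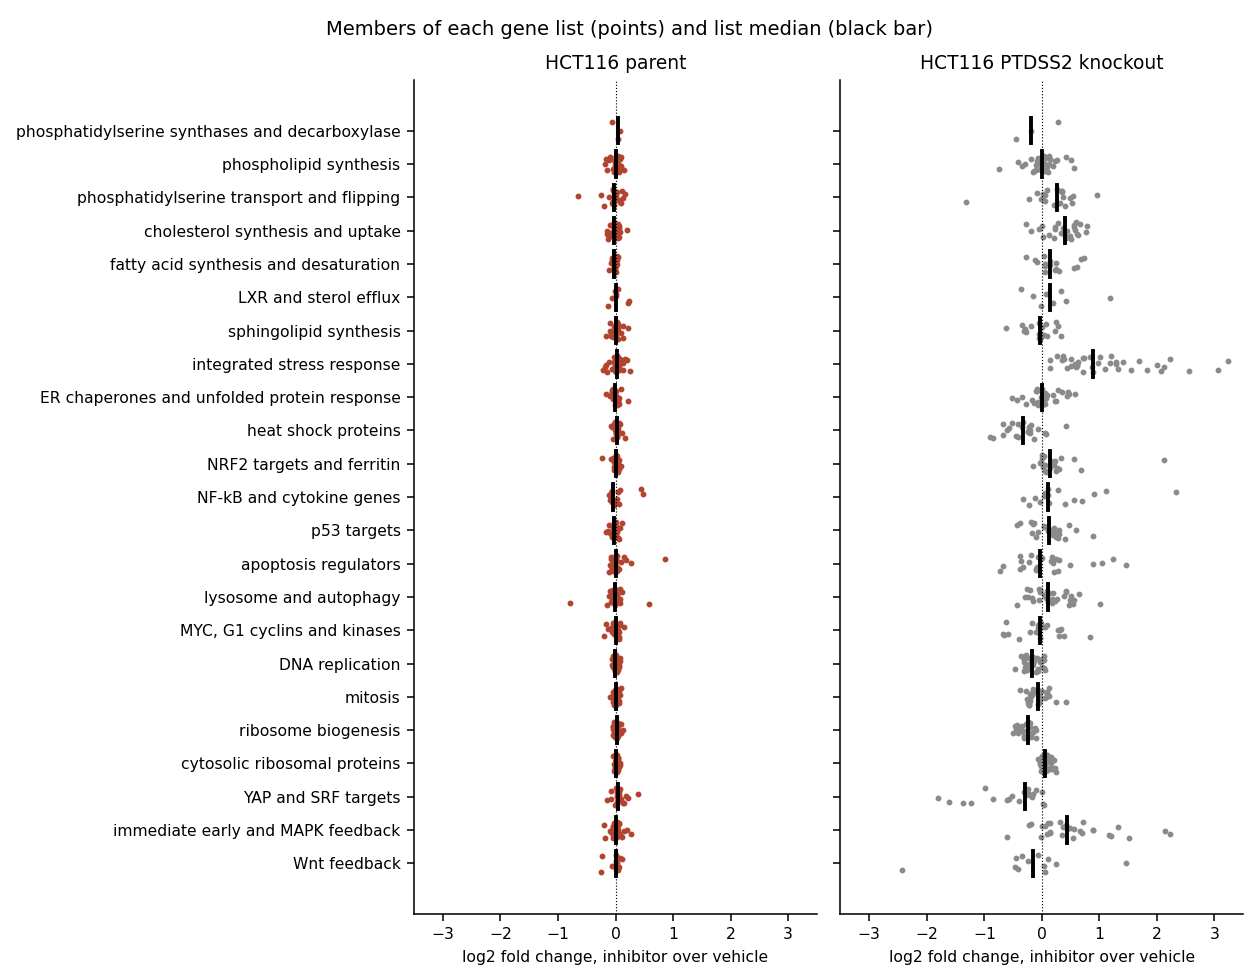
Log2 fold change of inhibitor over vehicle for each tested member (points) and the list median (black bars) of 23 gene lists, in the HCT116 parent (left) and in the HCT116 PTDSS2 knockout (right) on the same axis. Every parent median lies within 0.05 of 0, while knockout medians range from -0.33 for heat shock genes to 0.88 for the integrated stress response.

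The A375 parent, treated in the same way with PTDSS2 present, gave 12 calls among 13455 genes (0.0892%), 3 higher (0.0223%) and 9 lower (0.0669%), with median intervals of ±0.16 on the log2 scale in HCT116 and ±0.17 in A375. The A375 and HCT116 parents share no library. Of the 11 A375 calls that were tested in HCT116, 7 had an A375 change outside the HCT116 interval, among them SREBF2, SCD, INSIG1 and PSAT1. LOXL4, also among the 7, had opposite signs, at 0.52 ± 0.29 in HCT116 with only 2.43 CPM and -0.21 ± 0.04 in A375. The count of 7 takes genes picked for their change in A375 and leaves out the error of the A375 estimate. Of the 11 genes, 9 had the same sign in HCT116. THBS1, called higher in A375 at 0.13 ± 0.02 (adjusted p = 0.00253; edgeR), had an HCT116 interval of 0.01 to 0.41 that holds that value. For the sterol genes the parents can be set side by side. INSIG1 stood at 0.02 ± 0.06 in HCT116, with an interval from -0.09 to 0.14, and at -0.42 ± 0.07 in A375, with 25.5, 25.6 and 25.2 CPM with inhibitor and 36.5, 33.0 and 32.7 CPM in vehicle in A375. SCD stood at -0.02 ± 0.03 in HCT116 and -0.22 ± 0.03 in A375, and SREBF2 at -0.09 ± 0.04 in HCT116 and -0.33 ± 0.04 in A375. PSAT1 stood at 0.00 ± 0.04 in HCT116 and 0.15 ± 0.03 in A375.

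The test of the difference between the parents nevertheless called 0 of 14637 genes (0.0%). INSIG1, at a difference of 0.45 ± 0.09 (HCT116 minus A375), and SCD, at 0.20 ± 0.04, came closest, each with an adjusted p of 0.0824 (edgeR), and SREBF2, at 0.24 ± 0.06, had an adjusted p of 0.239. SCD was called in this test by DESeq2, by limma-voom and by edgeR with library size alone, with a filter at 5 CPM, with the replicate block and in the older quasi-likelihood fit, with adjusted p-values from 0.000661 (DESeq2) to 0.0405 (the older fit). INSIG1 was called in the older edgeR fit (adjusted p = 0.0405). DESeq2 also called the readthrough gene EEF1E1-BLOC1S5. Of the 26 cholesterol genes tested in both lines, 16 were below 0 in HCT116 and 21 in A375, 14 of them in both and 3 above 0 in both, with medians of -0.02 in HCT116 and -0.13 in A375. Over all 12003 genes tested in both lines 24.8% were below 0 in both. The count of 14 depends on how many of the 26 were below 0 in each line alone, and a link between the lines was not tested. The ABCA1 rise of 0.58 ± 0.09 called in A375 lies inside the wide HCT116 interval of -0.53 to 1.00.

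**Figure D5:**
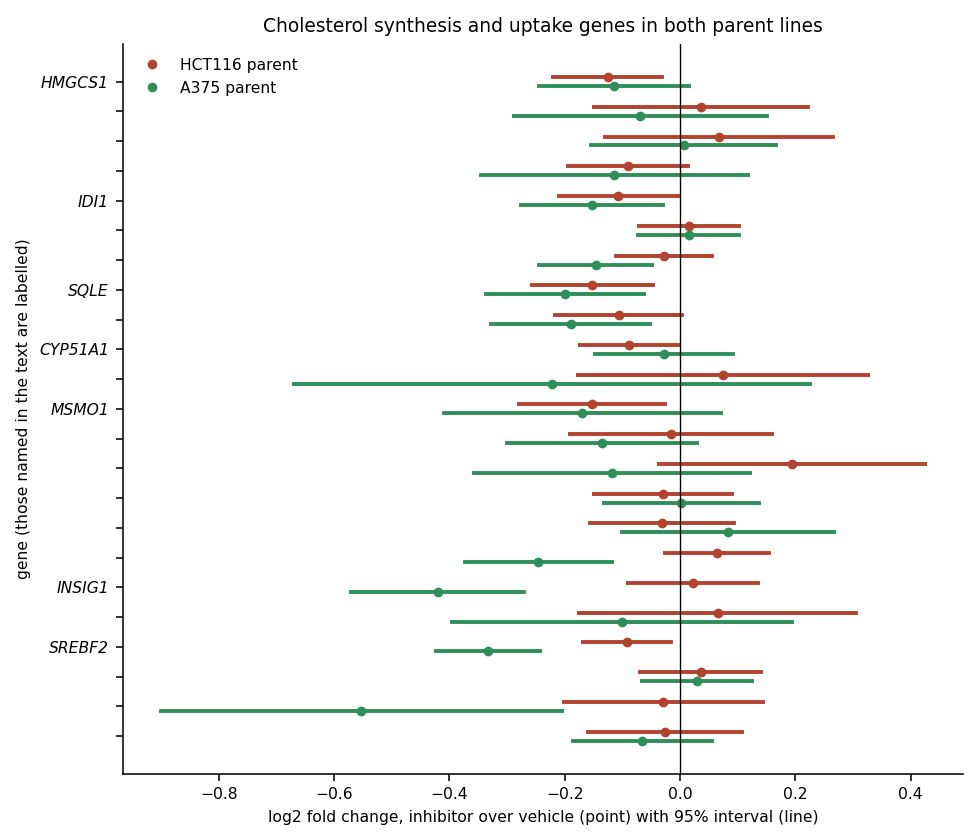
Log2 fold change of inhibitor over vehicle (points) with its 95% interval (lines) for 23 of the 26 cholesterol synthesis and uptake genes tested in both lines, with the genes named in the text labelled, in the HCT116 parent (red, upper of each pair) and the A375 parent (green, lower of each pair). INSIG1 stands at 0.02 in HCT116 and -0.42 in A375.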

How the data were processed

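RNA of 24 libraries was sequenced after poly(A) selection, per the labels' protocols, and 6 of them, the HCT116 parent with inhibitor or vehicle, are described here. The submitters' processing notes name STAR 2.4.2a, RSEM 1.2.23 and the build hg19. The strand setting was not found in the sources used. Per the file headers, the deposited files give expected counts for each gene, estimated by RSEM and not always whole. The deposited TPM values are scaled for transcript length and library size, per the file headers. The deposited FPKM values were not used.

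Expected counts were rounded. Of 25343 genes, 25220 were matched by identifier to a symbol in a RefSeq table of GRCh38.p14, used for names only, and the other 123 took up to 0.0692% of a parent library. Coordinates are not given because that build differs from the files'. The fit used edgeR 4.0.16 (R 4.3.3) over the 12 HCT116 libraries, with 4 group means, TMM scaling and the default expression filter (minimum count 10, total 15). The test was the two-sided robust quasi-likelihood F test. Standard errors and 95% intervals came from the same fit. CPM values are TMM-scaled, and TPM values are as deposited. HCT116 and A375 parents were compared in a fit of all 24 libraries. The tests were tested on simulated data. Total counts were 7901427 to 10002741 per library, and libraries of a group differed beyond counting error (chi-square per degree of freedom 1.50 to 1.96).

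Members and gene lists were chosen with earlier results of these data known. Named genes were PTDSS1, PTDSS2 and PISD; of each list the 3 most abundant members, the 2 with the largest change among those called in the knockout, the largest parent estimate and the widest interval; the 5 smallest p-values in each direction; genes called by an alternative; and list members called in the A375 parent. A selection of these is printed, some list members are not reported here, and other genes are named for passing an unadjusted p of 0.05, for groups that did not overlap or as the excepted members of a count. Results were recomputed with DESeq2 1.42.0 and limma-voom (limma 3.58.1), with scaling by DESeq2 size factors or by library size, unfiltered or keeping means of 5 CPM and above, over the compared libraries or all 24, with a replicate block, leaving out each library and, added after seeing the data, an older edgeR quasi-likelihood fit.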

Additional observations from a re-analysis of the deposited data

Results flagged for a closer look

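The inhibitor effect differed between the HCT116 PTDSS2 knockout and the parent for 3218 genes, by the test of the difference itself (edgeR quasi-likelihood, adjusted p under 0.05). Values are given for 22 of these genes, which were chosen after their values were seen, and each value is the log2 knockout effect minus the parent effect, with n = 3 libraries in each of the 4 groups.

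Lipid genes differed both ways. PTDSS1 differed by -0.50 and PISD by 0.35, and the kinase CHKA and the flippase gene ATP10D differed by -0.70 and -1.39. Sterol and fatty acid genes differed upward, with SREBF2 at 0.66, INSIG1 at 0.76, SCD at 0.59 and SREBF1 at 0.80. Stress genes differed upward by 2.07 for SLC7A11, 3.29 for CHAC1, 1.81 for DDIT3, 1.32 for PSAT1 and 1.17 for the cytokine LIF. The chaperone HSPA8 differed by -0.71 and the survival gene BCL2L1 by -0.75. Growth genes differed downward by -0.67 for CCND1, -0.46 for MYC, -0.32 for NCL, -2.02 for THBS1, -1.64 for AMOTL2 and -2.47 for DKK1, and upward by 1.36 for DUSP4. The largest adjusted p among these genes was 0.001732, for PISD (edgeR).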

How the results depend on the processing

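In the HCT116 parent the count of genes called was 0 to 1 over 10 alternatives and 0 to 2 with each library left out. The exceptions to 0 were DESeq2, with 1 (GTF2IP4), the 6 parent libraries fitted alone, with 1 (POLR2J2), the fit without inhibitor replicate 1, with 1 (NPIPA5), and the fit without inhibitor replicate 3, with 2 (ABHD14A-ACY1 and NBPF14). None of these genes is in a list, and all belong to gene families or readthrough pairs whose reads can be split. A 1.5-fold change was excluded for 10795 to 11323 genes over the alternatives and 10878 to 10995 with a library left out. The median half-width of the intervals was 0.14 to 0.26, with the highest value, 0.262, without a filter, and 0.18 to 0.19 with a library left out. The knockout minus parent difference was called for 2206 (DESeq2) to 3344 genes, and 2695 to 3014 with a library left out. The HCT116 minus A375 parent difference called 1 gene with library size alone, 1 with a filter at 5 CPM, 1 with limma-voom, 2 with DESeq2, 2 with the replicate block and 2 with the older edgeR fit, SCD in each and INSIG1 also in the older fit, and 0 to 1 with a library left out (GP1BB without HCT116 vehicle replicate 2). The cause of these calls was not tested. Same-numbered parent libraries deviated from their group means with correlations of 0.015, 0.058 and 0.062, so the numbers were not taken to pair them, and the replicate block called 0 genes in the parent, excluded 1.5-fold for 11287 and called 3344 in the knockout minus parent difference. Medians of the 23 lipid, stress and growth lists lay between -0.07 and 0.07 in every alternative, and 0 list members were called in the parent in any of them. Low counts limit the genes under 5 CPM, for which 1.5-fold was mostly not excluded.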

Other observations

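The colon epithelium markers tested in the HCT116 parent were also held to small limits. Of 20 colon epithelium markers 11 passed the count filter and 0 were called, with a median of 0.02 and bounds from 1.05-fold for EPCAM to 1.36-fold for CLDN3. At an unadjusted p under 0.05 was 1 of the 11, ELF3 (9.09%, against 4.18% of all genes). The groups did not overlap for 1 higher member, KRT18, and 1 lower, ELF3 (9.09% each, against 4.75% higher and 4.95% lower over all genes). ELF3, an epithelial transcription factor, was lower in each inhibitor library, at 37.1, 32.3 and 34.6 CPM against 42.3, 37.9 and 38.5 CPM in vehicle, at -0.19 ± 0.07 (unadjusted p = 0.00983; adjusted p = 0.999; edgeR). In the knockout the same gene rose by 1.23 ± 0.05, and the difference between the lines was called (adjusted p = 1.119e-17; edgeR). The keratin gene KRT18 had 739, 748 and 759 CPM with inhibitor and 725, 732 and 710 CPM in vehicle, at 0.05 ± 0.03 and a bound of 1.08-fold, and fell by 0.41 on the log2 scale in the knockout.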
